A study of Mus musculus with 6 samples.

Results

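CC chemokines are small secreted proteins that draw leukocytes along a gradient, and they take their name from a pair of adjacent cysteines near the start of the mature protein. They act through G protein-coupled receptors of the CCR family on monocytes, T cells, NK cells, granulocytes and dendritic cells. In macrophages their genes are known targets of NF-kB, of the IRF and STAT factors and of AP-1, and many of their mRNAs are short-lived. The members here had been chosen by gene symbol as CC chemokines of macrophages, by a rule that contains no measured value: *Ccl2*, *Ccl3*, *Ccl4*, *Ccl5*, *Ccl6*, *Ccl7*, *Ccl9*, *Ccl12*, *Ccl17* and *Ccl22*. These are 10 of the 55453 gene symbols in the table of counts, and all 10 were found.

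RNA-Seq was performed on bone marrow-derived macrophages (BMDM) of C57BL/6 mice, with 3 libraries labelled PP2A KO and 3 labelled WT, called PP2Ac KO and PP2Ac WT here. The PP2Ac KO cells came from *LysM-cre PP2Ac fl/fl* mice, in which loxP sites lie around the first exon of *Ppp2ca*, the gene of the catalytic subunit of protein phosphatase 2A, and cre is driven by the lysozyme 2 promoter of the myeloid lineage. The PP2Ac WT cells came from WT mice, so that the cre transgene, the floxed alleles and the source of the mice go together with the genotype and cannot be told apart from it. Marrow cells of mice of both sexes, 6 to 10 weeks old, were grown into BMDM over 7 days with M-CSF or L929-conditioned medium. All 6 libraries were taken as treated with cGAMP, an agonist of the cytosolic DNA sensor pathway STING, at 10 µg/mL for 4 hours. That treatment comes from the description of the experiment. The labels give no treatment and no untreated libraries were analysed here, so the comparison was one between genotypes and not between stimulated and resting cells. Cell-based experiments are described in general as biological replicates in the study's methods, but the labels do not tie the 3 libraries of a genotype to separate mice or cultures. P-values therefore measure the spread between these libraries, which may be technical.

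*Ppp2ca* had 47, 33 and 38 counts in the knockout libraries, against 10654, 8913 and 8279 in the others. Library totals lay between 35257156 and 47390899 counts. Levels are given as CPM, which are counts scaled to a common library size with factors from the TMM method, and 13680 genes had counts high enough to be tested. The TMM factors separated the genotypes, at 0.910 to 0.937 in PP2Ac KO and 1.05 to 1.10 in PP2Ac WT. Macrophage markers were abundant in each library, with a summed level of 7692 to 7850 CPM over 7 markers in PP2Ac KO and 6482 to 7079 CPM in PP2Ac WT. These sums did not overlap. Of the 7, *Fcgr1*, *Spi1* and *Mertk* were called higher in PP2Ac KO, with log2 fold changes of 0.70, 0.34 and 0.27, and none was called lower. With plain library totals in place of the TMM factors, 1 was higher and 1 lower. The 7 fibroblast markers were lower in PP2Ac KO, where they summed to 23.7 to 35.3 CPM against 77.0 to 122.7 CPM in PP2Ac WT, and 5 of the 6 tested passed the test. In such bulk libraries, fewer cells of a type and less RNA per cell cannot be told apart.

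In the mouse genome build GRCm38 (mm10), 8 of the 10 genes lie on chromosome 11 and 2 on chromosome 8. The monocyte chemoattractant genes follow each other on the forward strand at chr11:82035571-82037453 (*Ccl2*), chr11:82045712-82047525 (*Ccl7*) and chr11:82101845-82103400 (*Ccl12*). After a gap of 1428673 bp between start sites comes a second cluster, with *Ccl5* at chr11:83525778-83530518, *Ccl9* at chr11:83572919-83578636, *Ccl6* at chr11:83587882-83593087 and *Ccl3* at chr11:83647844-83649355 on the reverse strand, and *Ccl4* at chr11:83662584-83664683 on the forward strand. The chromosome 8 pair, *Ccl22* at chr8:94745590-94751699 and *Ccl17* at chr8:94810453-94812036, lies on the forward strand with start sites 64863 bp apart. In the GENCODE M21 annotation, transcripts of *Ccl6* and *Ccl9* have 4 exons and those of the other 8 genes have 3.

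The coding stretch around the cysteine pair is shown for 3 of the pairs of relatives whose counts are set against each other further on. It lets a reader see how alike these genes are. The stretch of *Ccl7*, which is also set against *Ccl2*, is not shown. Each stretch has 48 bases and is written 5′ to 3′ in the sense of the mRNA, with the adjacent cysteine codons in capitals. Those of *Ccl2* (chr11:82036485-82036532, forward strand), *Ccl12* (chr11:82102613-82102660, forward strand), *Ccl3* (chr11:83648631-83648678, reverse strand), *Ccl4* (chr11:83663461-83663508, forward strand) and *Ccl6* (chr11:83589365-83589412, reverse strand) each lie in a single exon. That of *Ccl9* (chr11:83575905-83576375, reverse strand) is joined from 2 exons.
Ccl2: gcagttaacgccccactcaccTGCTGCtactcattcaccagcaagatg
Ccl12: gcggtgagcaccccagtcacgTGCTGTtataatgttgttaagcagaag
Ccl3: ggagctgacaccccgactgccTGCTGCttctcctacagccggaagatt
Ccl4: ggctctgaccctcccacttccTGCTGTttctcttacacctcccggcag
Ccl6: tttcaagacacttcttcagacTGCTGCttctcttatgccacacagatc
Ccl9: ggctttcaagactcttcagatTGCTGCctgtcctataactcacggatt

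The aligned coding sequences were identical at 69.5% of positions for *Ccl3* and *Ccl4*, 66.8% for *Ccl6* and *Ccl9*, 64.6% for *Ccl7* and *Ccl12*, and 51.9% for *Ccl2* and *Ccl12*. These shares count gaps as positions that differ, and *Ccl2* has 444 coding bases against 312 in *Ccl12*. Over the columns without gaps, 74.2%, 73.0%, 71.1% and 74.3% were identical, so the pairs are not ranked by likeness. *Ccl2* and *Ccl7* were identical at 51.2% of positions and 78.6% without gaps, and *Ccl2* and *Ccl4* at 48.3% and 78.2%. The share without gaps therefore does not mark close relatives. Of the 10 genes, 9 shared no window of 50 bases with a transcript of any other gene. *Ccl9* shared 59 of its 2996 windows, or 1.97%, with other genes. No exon of a member overlapped an exon of another gene.

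CC chemokines were mostly higher in PP2Ac KO than in PP2Ac WT BMDM. Of the 10 genes, 9 were tested, and 7 of these rose at an adjusted p under 0.05 (quasi-likelihood test of edgeR, adjusted by Benjamini-Hochberg over all 13680 genes): *Ccl2*, *Ccl3*, *Ccl4*, *Ccl5*, *Ccl7*, *Ccl9* and *Ccl12*. Over all genes tested, 18.1% were higher by this rule. None of the 9 fell, against 19.0% of all genes tested, and *Ccl6* and *Ccl22* did not pass the test. At the study's thresholds, a log2 fold change over 1 and an adjusted p under 0.01, the members counted were *Ccl3*, *Ccl4*, *Ccl5* and *Ccl12*, or 4 of the 9, where 3.36% of all genes tested were as far up. The libraries of the genotypes did not overlap for 7 of the 9, as for 50.9% of all genes tested. The median log2 fold change over the 9 was 0.92, beside −0.02 over all genes tested.

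**Figure D1:**
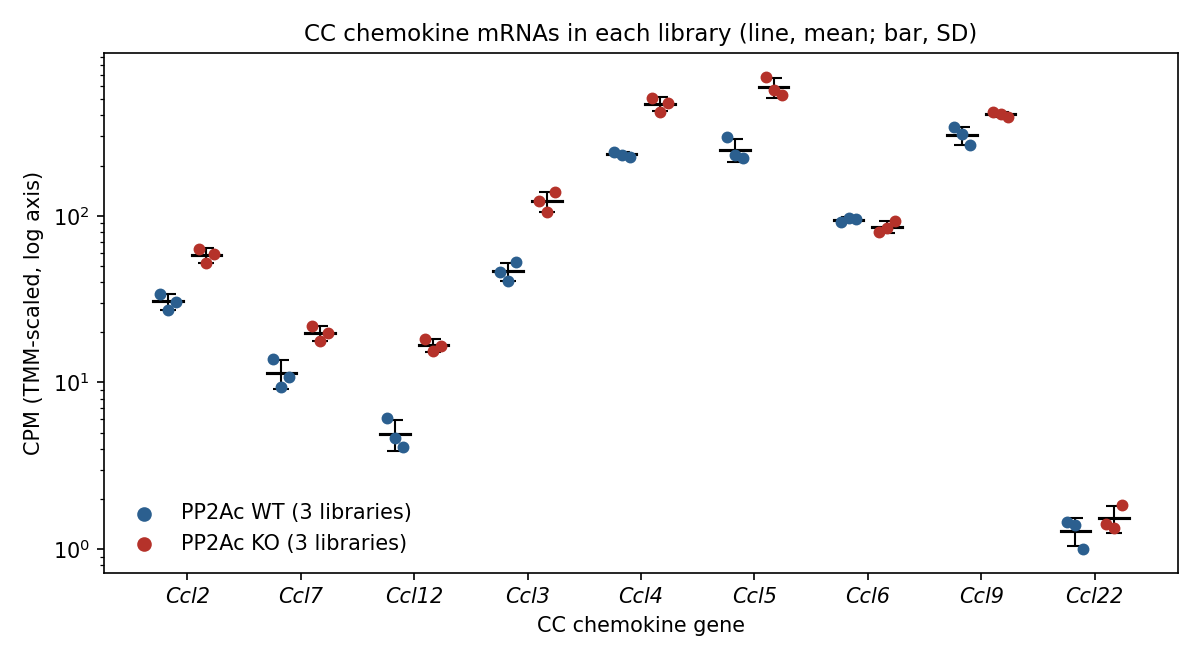
CPM (TMM-scaled, log axis) of the 9 tested CC chemokine genes in each library, with blue points for the 3 PP2Ac WT and red points for the 3 PP2Ac KO libraries, black lines for means and bars for SD. The red points lie above the blue points for every gene shown except *Ccl6* and *Ccl22*, where they overlap.

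The genes of the first cluster on chromosome 11 encode ligands that attract monocytes. *Ccl2* encodes MCP-1, a ligand of CCR2 that draws monocytes out of the marrow and into tissue. Its level was 63.4, 51.9 and 58.9 CPM in the PP2Ac KO libraries, against 34.1, 27.3 and 30.4 CPM in the PP2Ac WT libraries. The lowest PP2Ac KO library lay above the highest PP2Ac WT library. The means were 58.0 ± 5.81 and 30.6 ± 3.44 CPM (SD, n = 3 each), a log2 fold change of 0.92 ± 0.10 (SE) with an edgeR adjusted p of 1.90e-04.

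*Ccl7* encodes MCP-3, which binds CCR2 as well as CCR1 and CCR3. It was measured at 21.9, 17.8 and 19.9 CPM in PP2Ac KO, against 13.9, 9.45 and 10.7 CPM in PP2Ac WT. The groups did not overlap, though the first PP2Ac WT library came closer to the PP2Ac KO libraries than the other two. The log2 fold change was 0.81 ± 0.14 (SE), with an edgeR adjusted p of 0.00172.

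*Ccl12* encodes MCP-5, a rodent ligand of CCR2, and had the largest fold change of the 9 genes. Its level was 18.2, 15.4 and 16.5 CPM in PP2Ac KO, against 6.08, 4.64 and 4.08 CPM in PP2Ac WT. Every PP2Ac KO library was far above every PP2Ac WT library. The log2 fold change of 1.75 ± 0.14 (SE) corresponds to a fitted fold of 3.37 (edgeR adjusted p = 6.16e-05), and 99.1% of the genes tested had a smaller log2 fold change.

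*Ccl12* therefore changed more than *Ccl2* although both are CCR2 ligands of the same cluster. Within a library, the ratio of *Ccl2* to *Ccl12* counts was 3.479, 3.377 and 3.567 in PP2Ac KO and 5.616, 5.871 and 7.444 in PP2Ac WT. The ratios did not overlap, and their mean log2 difference was −0.85, PP2Ac KO minus PP2Ac WT. A 2-sided exact permutation test gave p = 0.1, the smallest value that 3 libraries against 3 allow, for this ratio and for each of the other 3 ratios compared, and adjustment over the 4 left it at 0.1. The ratio of *Ccl2* to *Ccl7* was nearer to even between the genotypes, at 2.90, 2.92 and 2.96 in PP2Ac KO and 2.46, 2.89 and 2.83 in PP2Ac WT. Its log2 difference was 0.10, and 0.03 without the first PP2Ac WT library. Fibroblasts are also a known source of *Ccl2* and *Ccl7*, and their markers moved the other way, by a median of −1.69 on the log2 scale over the 6 tested. *Col1a1*, *Col1a2*, *Col3a1*, *Dcn* and *Pdgfra* fell, *Thy1* did not pass the test, *Lum* was too low to be tested, and none of the 7 was at 0 throughout. The part of the fibroblast markers in these results was not tested.

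The second cluster on chromosome 11 holds inflammatory ligands that draw monocytes, T cells and NK cells. *Ccl3* encodes MIP-1α, a ligand of CCR1. It was measured at 122.6, 106.1 and 139.5 CPM in PP2Ac KO, against 45.8, 40.6 and 52.6 CPM in PP2Ac WT. All PP2Ac KO libraries were above all PP2Ac WT libraries by a wide margin. The log2 fold change was 1.41 ± 0.12 (SE), with an edgeR adjusted p of 7.41e-05.

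*Ccl4* encodes MIP-1β, a close relative of MIP-1α. Its level was 510.0, 419.8 and 474.9 CPM in PP2Ac KO, against 242.2, 231.3 and 226.6 CPM in PP2Ac WT. The groups did not overlap, and the PP2Ac WT libraries were close together, with an SD of 8.04 CPM around a mean of 233.4. The log2 fold change was 1.005 ± 0.08 (SE) with an edgeR adjusted p of 6.67e-05, so that *Ccl4* sat at the study's threshold of fold change itself. It lay under that threshold, at 0.93, 0.9983, 0.9997 and 0.99, without library 1 or 3 of PP2Ac KO or library 2 or 3 of PP2Ac WT. With all libraries it was also under, at 0.94 with upper-quartile scaling, 0.9975 with no filter, 0.9994 with limma-voom and 0.79 with plain library totals. It stayed above at 1.03 with RLE scaling and DESeq2, 1.0009 with the replicate block and 1.001 with 10 counts required in every library. *Ccl2* passed the threshold, at 1.0001 and 1.01, without library 2 of PP2Ac KO or library 1 of PP2Ac WT.

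*Ccl5* encodes RANTES, a ligand of CCR1 and CCR3 that attracts T cells and is known as an interferon-responsive gene. It stood at 683.7, 564.5 and 528.4 CPM in PP2Ac KO, against 295.0, 232.3 and 221.5 CPM in PP2Ac WT. The lowest PP2Ac KO library was well above the highest PP2Ac WT library, and the first library of each genotype was its highest. The means were 592.2 ± 81.3 and 249.6 ± 39.7 CPM (SD, n = 3 each), a log2 fold change of 1.25 ± 0.13 (SE) with an edgeR adjusted p of 1.69e-04. T and NK cells also make *Ccl5*, and their 7 markers summed to 0.575 to 0.697 CPM in PP2Ac KO, against 0.358 to 0.575 CPM in PP2Ac WT, with *Cd8a* at 0 in all 6 libraries, 5 of the 7 at 3 counts or fewer in each library, and the single one tested not called. The part of T and NK cells in the *Ccl5* result was not tested.

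*Ccl3* changed more than its neighbour *Ccl4*. Their ratio was 0.240, 0.253 and 0.294 in PP2Ac KO and 0.189, 0.176 and 0.232 in PP2Ac WT. The ratios did not overlap and differed by 0.40 on the log2 scale, with the same exact permutation p of 0.1.

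*Ccl9* and *Ccl6*, rodent chemokines that act on CCR1, stand side by side in the same cluster and behaved differently. *Ccl9* was measured at 418.4, 408.4 and 390.6 CPM in PP2Ac KO, against 339.6, 307.4 and 264.2 CPM in PP2Ac WT. All PP2Ac KO libraries were higher, with a log2 fold change of 0.42 ± 0.09 (SE) and an edgeR adjusted p of 0.00677, the smallest rise of the 7 called. This call depends on scaling: with plain library totals in place of TMM the log2 fold change was 0.20 and the adjusted p 0.0568.

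*Ccl6* was measured at 79.5, 84.3 and 93.2 CPM in PP2Ac KO, against 91.2, 97.5 and 95.4 CPM in PP2Ac WT. Library 3 of PP2Ac KO lay within the range of PP2Ac WT, and the groups overlapped. The log2 fold change of −0.15 ± 0.07 (SE) did not pass the test (edgeR adjusted p = 0.144). With the replicate number as a block, it was −0.15 again with an adjusted p of 0.0214, each PP2Ac KO library being below the PP2Ac WT library of the same number.

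The ratio of *Ccl6* to *Ccl9* counts was 0.190, 0.206 and 0.239 in PP2Ac KO and 0.269, 0.317 and 0.361 in PP2Ac WT. It was lower in every PP2Ac KO library, by 0.57 on the log2 scale (exact permutation p = 0.1), and a ratio within a library does not depend on its scaling.

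The chromosome 8 pair encodes the ligands of CCR4, a receptor of Th2 and regulatory T cells. *Ccl22* encodes MDC and had 60, 44 and 77 counts in PP2Ac KO and 72, 61 and 42 in PP2Ac WT. At 1.41, 1.33 and 1.85 CPM against 1.45, 1.40 and 1.002 CPM, the groups overlapped. Its log2 fold change of 0.25 ± 0.21 (SE) did not pass the test (edgeR adjusted p = 0.380), and 1 of the 3 same-numbered pairs was higher in PP2Ac KO. *Ccl17*, which encodes TARC, had 1, 1 and 3 counts in PP2Ac KO and 0, 3 and 0 in PP2Ac WT. These counts are at or under a floor of 3 per library, which amounts to 0.0604 to 0.0909 CPM, so that neither a level nor a difference was detectable at this depth. Macrophages are known to make both when alternatively activated, and of 5 tested markers of that state *Chil3* and *Clec10a* rose while *Arg1* and *Mrc1*, with log2 fold changes of −0.37 and −0.09, did not pass the test. *Mgl2*, the remaining one, had a log2 fold change of 0.58 and did not pass either (edgeR adjusted p = 0.0657), but was called with the replicate block (adjusted p = 0.0127).

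**Figure D2:**
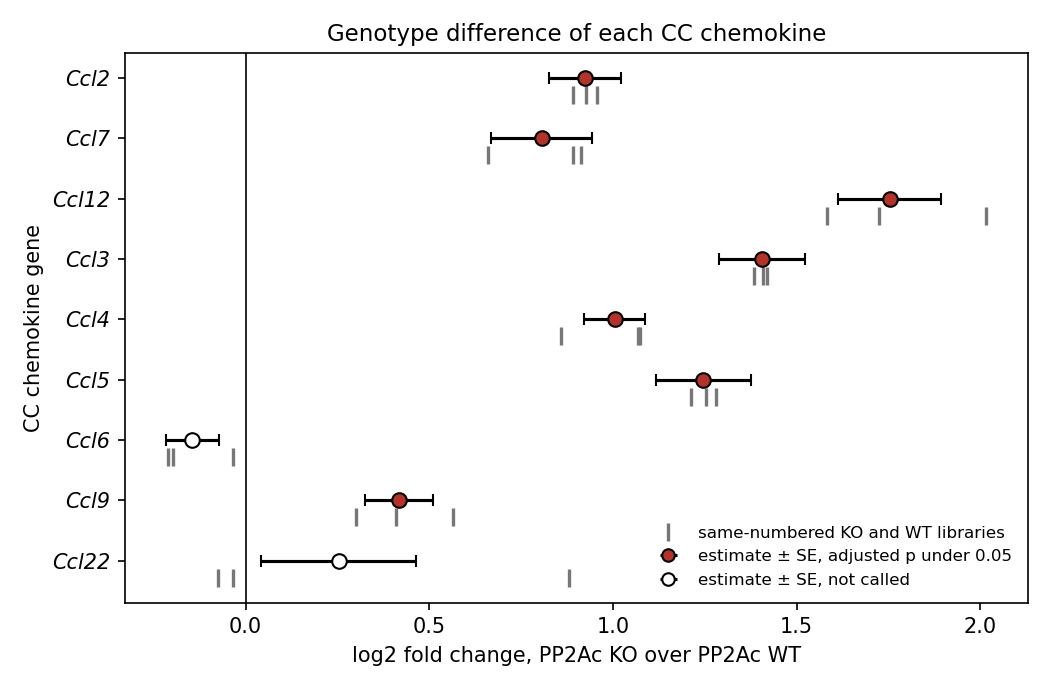
Log2 fold change of PP2Ac KO over PP2Ac WT for the 9 tested CC chemokine genes, as estimates with SE from edgeR (filled where the adjusted p was under 0.05), with grey ticks for the 3 pairs of same-numbered libraries. The estimates run from −0.15 for *Ccl6* to 1.75 for *Ccl12*, and the ticks of *Ccl22* lie on both sides of 0.

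Among same-numbered libraries, *Ccl2*, *Ccl3*, *Ccl4*, *Ccl5*, *Ccl7*, *Ccl9* and *Ccl12* were each higher in 3 of 3 pairs. This follows from their groups not overlapping, and would hold for any pairing of the libraries. *Ccl3* varied least between pairs, with log2 differences of 1.42, 1.39 and 1.41. The first library of each genotype was the highest of its group for *Ccl2*, *Ccl4*, *Ccl5*, *Ccl7*, *Ccl9* and *Ccl12*.

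Levels of different genes were compared only as CPM per kb of annotated exon. In PP2Ac WT, *Ccl4* was highest at 353.6 ± 12.2 CPM per kb, followed by *Ccl5* at 260.0 ± 41.3, *Ccl9* at 99.8 ± 12.4, *Ccl3* at 60.5 ± 7.82, *Ccl6* at 52.8 ± 1.78, *Ccl2* at 26.9 ± 3.02, *Ccl7* at 14.2 ± 2.84, *Ccl12* at 9.19 ± 1.92 and *Ccl22* at 0.553 ± 0.106 (SD, n = 3). Among neighbours in this order, the ranges of the libraries overlapped only for *Ccl3* and *Ccl6*. *Ccl17* was last, at or under the floor.

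In PP2Ac KO the order was *Ccl4* at 709.5 ± 68.8 CPM per kb, *Ccl5* at 616.9 ± 84.6, *Ccl3* at 160.2 ± 21.8, *Ccl9* at 133.3 ± 4.63, *Ccl2* at 51.0 ± 5.11, *Ccl6* at 47.7 ± 3.87, *Ccl12* at 31.1 ± 2.68, *Ccl7* at 24.8 ± 2.57 and *Ccl22* at 0.658 ± 0.118. Here the ranges of *Ccl4* and *Ccl5*, and those of *Ccl2* and *Ccl6*, overlapped. *Ccl3* stood above *Ccl9*, *Ccl2* above *Ccl6* in mean, and *Ccl12* above *Ccl7*, each the reverse of the order in PP2Ac WT. With the length of the longest transcript instead, *Ccl5* came before *Ccl4* in both genotypes and *Ccl6* moved ahead of *Ccl2* in PP2Ac KO and of *Ccl3* in PP2Ac WT. *Ccl6* was also ahead of *Ccl2* without the first PP2Ac KO library.

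**Figure D3:**
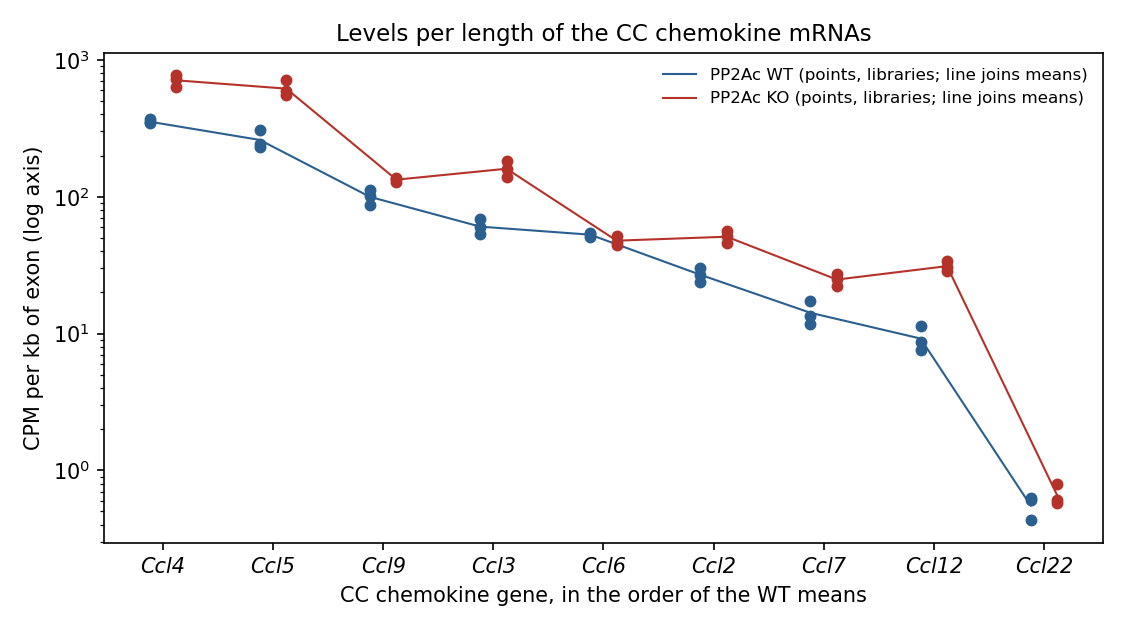
CPM per kb of exon (log axis) of the 9 tested CC chemokine genes in the order of their PP2Ac WT means, with points for the 3 libraries of each genotype and lines joining the means. The range reaches from 0.553 CPM per kb for *Ccl22* to 353.6 for *Ccl4* in PP2Ac WT, and the red PP2Ac KO line rises where the order changes.

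The 10 genes together took 1919, 1669 and 1724 CPM in PP2Ac KO, against 1069, 952.0 and 906.5 CPM in PP2Ac WT. The groups did not overlap, and the means of 1771 ± 131 and 976.0 ± 84.1 CPM (SD, n = 3 each) had a ratio of 1.81, with an exact permutation p of 0.1, the smallest possible. *Ccl5* made up 30.7% to 35.6% of this sum in PP2Ac KO and 24.4% to 27.6% in PP2Ac WT, while *Ccl9* made up 21.8% to 24.5% and 29.2% to 32.3%. The sum is not corrected for gene length, so these shares describe counts and not molecules.

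The other CC ligands were nearly silent. Of 14 further genes of the family, 9 had no more than 3 counts in any library and 3 could be tested: *Ccl27a*, a skin-associated ligand of CCR10 whose reads may be shared with near-identical copies, fell by 0.86 on the log2 scale from a low level (edgeR adjusted p = 0.00783), and *Ccl8* (−0.17) and *Ccl25* (−0.06) did not pass the test. *Ccl8*, which lies 13340 bp from the start of *Ccl12*, stood at 1.20 ± 0.220 CPM in PP2Ac KO, against 1.33 ± 0.378 CPM in PP2Ac WT (SD, n = 3 each).

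Among the CC receptors and decoys there were changes in both directions. *Ccrl2*, a non-signalling receptor that presents chemerin, rose from 175.3 ± 31.8 to 368.2 ± 29.9 CPM, with an edgeR adjusted p of 2.90e-04. *Ccr3*, an eosinophil receptor that was low here, fell by 0.65 (edgeR adjusted p = 0.0275). This call was lost without the first or second PP2Ac KO library or the first or second PP2Ac WT library, with adjusted p-values of 0.0953, 0.0928, 0.0643 and 0.0582.

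Receptors of several members did not pass the test. *Ccr2*, the receptor of the monocyte chemoattractants, had a log2 fold change of 0.33 (edgeR adjusted p = 0.0563, but 0.0108 with the replicate block and 0.0489 with RLE scaling), and its call was gained without the first PP2Ac WT library at 0.48 (adjusted p = 0.00318). *Ccr1* had one of −0.29 (edgeR adjusted p = 0.0902, but 0.00356 with the block and 0.041 with upper-quartile scaling). *Ccr7* and *Ccr9* did not pass the test, and *Ccr4*, the receptor of the *Ccl17* and *Ccl22* products, had at most 1 count in a library.

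The CXC, CX3C and XC ligands, the other chemokine families, changed in both directions. Of 16 such genes 12 were tested, of which 6 rose and 4 fell (2 fell without the second PP2Ac WT library). The median log2 fold change was 0.30. Of those that fell, *Cxcl5*, *Cxcl12* and *Ppbp* were low, with PP2Ac WT means of 0.636, 1.70 and 1.69 CPM. *Cxcl14* was not, with a mean of 58.8 CPM and a log2 fold change of −0.91. *Cxcl1*, which rose, was also low, at 0.420 CPM. The CC members had been chosen as chemokines of macrophages and the other CC ligands were listed apart, so the families themselves were not compared. *Cxcl9*, *Cxcl10* and *Cxcl11*, the interferon-inducible ligands of CXCR3, had log2 fold changes of 2.24, 1.36 and 2.74. Only *Ccl12*, the member with the largest change, was compared in profile with all genes tested. Its Pearson correlation over the 6 libraries was highest with *Calhm6*, at 0.9999, and *Cxcl10* was among the next closest at 0.9996. These correlations include the difference between genotypes. With the group means removed they were 0.999 and 0.993. Both genes were found by ranking all genes tested by this correlation, so high values follow in part from that choice. The values are a description over 6 libraries.

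**Figure D4:**
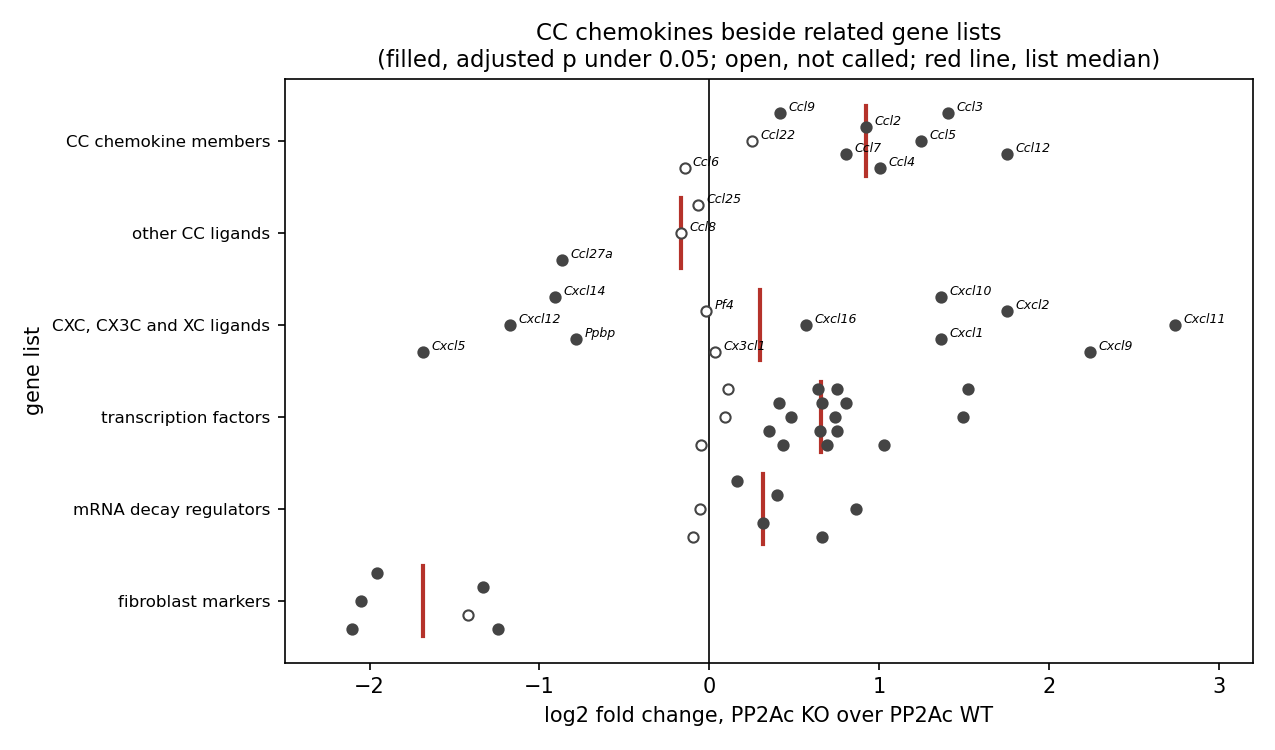
Log2 fold change of PP2Ac KO over PP2Ac WT for the tested genes of 6 lists, with filled points where the edgeR adjusted p was under 0.05 and red lines at the list medians. The CC members lie mostly to the right with a median of 0.92, the CXC, CX3C and XC ligands lie on both sides, and the fibroblast markers lie to the left.

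Genes of the transcription factors that are known to act on chemokine promoters were mostly higher too. The list held 18 genes, which were NF-kB, IRF, STAT, AP-1 and C/EBP factors and, counted with them, the NF-kB inhibitor gene *Nfkbia*. Of the 18, 15 rose and none fell (1 fell with plain library totals), with a median log2 fold change of 0.66. *Irf7* (1.53), the interferon-induced IRF, and *Nfkbia* (1.49), the NF-kB inhibitor that NF-kB itself induces, had the largest changes, whereas *Irf3*, *Irf4* and *Stat6* did not pass the test. Of 7 regulators of mRNA decay 5 rose, among them *Zfp36* (0.86), which encodes tristetraprolin, and *Zc3h12a* (0.67), which encodes regnase-1. With plain library totals 2 of the 7 rose and 2 fell.

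Tristetraprolin binds AU-rich elements in 3′ untranslated regions, and the core TATTTAT occurred once each in *Ccl3*, *Ccl4*, *Ccl12* and *Ccl22* and in no other member. These are 4 of the 9 tested members, or 44.4%, beside 29.8% of 12003 tested coding genes, whose 3′ untranslated regions are longer (median 1144 bp, against 412 bp for the members). The 3 sites in genes that rose are shown with 30 bases each, 5′ to 3′ in the sense of the mRNA with the core in capitals, from chr11:83648002-83648031 (*Ccl3*, reverse strand), chr11:83664542-83664571 (*Ccl4*, forward strand) and chr11:82103277-82103306 (*Ccl12*, forward strand) of GRCm38.
Ccl3: gtatttgtgacTATTTATtctgaaagactt
Ccl4: attatttctatTATTTATgttttagttata
Ccl12: gggcagtgtgaTATTTATtatgatatctaa
*Ccl2*, *Ccl5*, *Ccl7* and *Ccl9* rose without such a core in the annotated region, and *Ccl22* has one and did not pass the test. Only this exact core was searched, in the longest coding transcript of each gene, so other AU-rich elements may be present. The part of these cores or of the decay regulators in the chemokine results was not tested.

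RefSeq promoter sequences (GRCm38.p6) were at hand for *Ccl3*, *Ccl6*, *Ccl9*, *Ccl12*, *Ccl17* and *Ccl22*. The 250 bases before each RefSeq start were searched on both strands for an NF-kB consensus, the ISRE core (GAAA, any 2 bases, GAAA), the GAS core (TTC, any 3 bases, GAA), the STAT6-type core (TTC, any 4 bases, GAA) and the AP-1 core (TGA, any base, TCA). *Ccl9* held an NF-kB match at position −35 and an AP-1 match at −53, counted from the RefSeq start site, and *Ccl17* held a GAS match at −99 and a STAT6-type match at −154. For *Ccl6*, *Ccl9*, *Ccl12* and *Ccl17* the window ends right before the GENCODE start, whereas that of *Ccl22* runs 94 bases past it and that of *Ccl3* ends a short way upstream of it. Windows of *Ccl3*, *Ccl6*, *Ccl12* and *Ccl22* held none of these letters. Among 32841 mouse promoters of the same length, 3.9% had the NF-kB match, 2.98% the ISRE core, 7.02% the GAS core, 5.85% the STAT6-type core and 6.75% the AP-1 core. The windows of *Ccl9* (chr11:83578637-83578886, reverse strand) and *Ccl12* (chr11:82101595-82101844, forward strand), the genes with the smallest and the largest rise, are shown 5′ to 3′ with matches in capitals.
Ccl9: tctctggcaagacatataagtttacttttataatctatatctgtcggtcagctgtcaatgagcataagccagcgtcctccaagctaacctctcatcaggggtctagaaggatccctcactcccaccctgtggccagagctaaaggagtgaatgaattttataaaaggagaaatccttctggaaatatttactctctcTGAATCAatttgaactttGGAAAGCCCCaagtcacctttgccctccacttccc
Ccl12: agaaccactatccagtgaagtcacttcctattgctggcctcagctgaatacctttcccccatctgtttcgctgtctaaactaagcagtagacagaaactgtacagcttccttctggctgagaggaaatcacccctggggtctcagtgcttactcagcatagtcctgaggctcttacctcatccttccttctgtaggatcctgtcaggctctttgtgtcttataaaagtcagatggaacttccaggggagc

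Genes around the members moved in both directions, as did the genes tested as a whole. Within 250 kb of a member start, 23 other genes were tested, of which 5 were higher and 4 lower. Over all genes tested, 18.1% were higher and 19.0% lower, so these counts were near the general shares. The median of the log2 fold changes of the 23 was 0.005. With one library left out the counts ranged down to 3 higher (without library 2 or 3 of PP2Ac KO or library 2 of PP2Ac WT) and to 1 lower (without library 2 of PP2Ac WT; 2 lower without library 1 or 2 of PP2Ac KO or library 3 of PP2Ac WT). The largest changes in size were falls, both near the chromosome 8 pair. *Adgrg1* had a log2 fold change of −1.05 (edgeR adjusted p = 0.00158) and *Ccdc102a* one of −1.03 (edgeR adjusted p = 0.0211). Both were low, with PP2Ac WT means of 3.78 and 0.829 CPM. The closest gene that rose was *Heatr9*, whose start lies 8343 bp from that of *Ccl5*, with a log2 fold change of 0.89 (edgeR adjusted p = 0.00201). On chromosome 8, *Cx3cl1* lies between *Ccl22* and *Ccl17* and had a log2 fold change of 0.03 (edgeR adjusted p = 0.834).

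Markers of other leukocytes that make CC chemokines were low in all libraries. The 7 neutrophil markers summed to 0.935 to 1.01 CPM in PP2Ac KO, against 0.765 to 0.989 CPM in PP2Ac WT, with *Ly6g* at 0 throughout. The 7 dendritic cell markers summed to 2.97 to 6.06 CPM and 1.67 to 2.58 CPM, and 2 of the 4 tested, *Dpp4* and *Clec9a*, rose (1 of them without library 1 of PP2Ac KO or library 2 or 3 of PP2Ac WT). Of the 5 monocyte markers 4 rose, among them *Plac8* (2.48), *Chil3* (1.46) and *Ly6c2* (1.38). *Chil3* and *Ly6c2* were low, with means of 0.857 and 0.741 CPM in PP2Ac KO. The list summed to 23.5 to 24.7 CPM in PP2Ac KO, against 12.2 to 18.4 CPM in PP2Ac WT. Most of this sum was *Ccr2*, which did not pass the test, with means of 17.0 and 13.5 CPM. Monocytes are a known source of *Ccl2*, *Ccl3* and *Ccl4*, and the part of the neutrophil, monocyte and dendritic cell markers in the chemokine results was not tested.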

How the data were processed

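Gene counts were analysed for 6 libraries of BMDM, 3 PP2Ac KO and 3 PP2Ac WT, grouped by the genotype in the labels. The authors deposited whole-number counts of reads per gene symbol without normalization, from poly(A)-selected, directional libraries read as pairs of 150 bases. The submitters' processing notes name fastp 0.20.0, kallisto 0.46.1, STAR 2.7.1a, HTSeq 0.11.2, edgeR 3.34.0 and limma 3.48.3 with the builds mm10 and GRCm38. Which program made the counts, the annotation and the strand setting are not given in the sources used here.

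In R 4.3.3, edgeR 4.0.16 was used with filterByExpr (minimum count 10, minimum total 15), TMM scaling, glmQLFit and glmQLFTest on genotype, adjusted by Benjamini-Hochberg across the 13680 genes that passed. SE were computed from the log2 fold change and F. Floors of 3 counts cover counting error only. Sequences, exon lengths and coordinates came from GENCODE M21 (GRCm38), in which 99.3% of the genes tested had a length, and promoters from RefSeq. Ratios and sums were compared by 2-sided exact permutation tests. Correlations of profiles used log2 CPM with a pseudocount of 0.5. The scripts were tested on simulated data.

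Both genotypes carry the replicate numbers 1, 2 and 3 in the labels. Deviations from the group means of same-numbered libraries correlated at 0.249, 0.126 and 0.31. Correlations between libraries of different numbers were not computed, so these values cannot show that the numbers pair the libraries. A fit with the replicate block was run beside the unpaired fit, and calls gained only with the block rest on that unshown pairing.

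The rule for the members uses gene symbols alone, but the members and the gene lists were chosen with earlier results of these data known. All 10 members are named whatever their values. Ligands and receptors of the other lists are named where tested, and of other lists those with the largest changes, except for some genes that are not reported here. *Heatr9*, *Calhm6* and *Cx3cl1* were named after their values were seen. Alternatives were RLE and upper-quartile scaling, other filters on low counts, the block, DESeq2 1.42.0, limma-voom (limma 3.58.1), the longest transcript as gene length, each library left out, and plain library totals, the last chosen after seeing the data.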

Additional observations from a re-analysis of the deposited data

How the results depend on the processing

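The number of members that were higher was 7 under each alternative except plain library totals, a setting chosen after seeing the data, where it was 6, and between 3 and 5 members passed the study's thresholds. The number that were lower was 0 and became 1 with upper-quartile scaling, with the replicate block and with plain library totals. That member was *Ccl6* each time, with log2 fold changes of −0.21 (adjusted p = 0.0496), −0.15 (0.0214) and −0.36 (0.00401). The call of *Ccl9* was lost with plain library totals, at 0.20 (adjusted p = 0.0568). Of the 126 alternative values of the 9 tested members, the other 122 kept their direction and their side of the threshold. Plain library totals shifted the median of all genes from −0.02 to −0.24 and the calls from 2470 higher and 2604 lower (48.7% higher) to 1503 and 6125 (19.7% higher), and relative to that median *Ccl6* stood at −0.12 and *Ccl9* at 0.44 under both scalings. The replicate block changed no other call of a member.

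The log2 fold changes over these settings ranged from 0.71 to 1.01 for *Ccl2*, 1.19 to 1.51 for *Ccl3*, 0.79 to 1.08 for *Ccl4*, 1.03 to 1.38 for *Ccl5*, 0.59 to 0.98 for *Ccl7* and 1.54 to 1.94 for *Ccl12*. The ratio of the summed CPM ranged from 1.73 to 1.91 with a library left out and was 1.56 with plain library totals. A count of 3 or fewer, as for *Ccl17*, gives no level at these depths. Requiring 10 counts in every library, which leaves fewer genes tested, left 1 of the monocyte markers called.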
